A study of Mus musculus with 8 samples.

Results

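Olfactory receptor (Olfr) genes on mouse chromosomes 10, 17 and 19 were placed on region lists of histone H3 methylated at lysine 9 in its mono- (H3K9me1), di- (H3K9me2) and trimethylated (H3K9me3) forms, obtained by chromatin immunoprecipitation and sequencing (ChIP-seq). The genes were all those of the GENCODE M21 annotation (GRCm38) whose symbol begins with Olfr on these chromosomes. There were 232 of them, 78 on chromosome 10, 63 on chromosome 17 and 91 on chromosome 19, of 1407 Olfr genes and of 55413 genes in all. The annotation gives 189 as protein-coding and 43 as pseudogenes. The cells were wild-type (WT) mouse embryonic fibroblasts (MEFs), with 8 samples in 4 groups: input and the 3 marks, 2 replicates each. Per the study's methods, the WT control is a MEF line that carries a tamoxifen-inducible conditional allele of Eset1 (Setdb1), an H3K9 methyltransferase, here without deletion. All 4 groups came from these cells. The region lists hold no RNA values, so the labelled cell type could not be checked against marker genes here.

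Olfactory receptors are odour-binding G protein-coupled receptors and form the largest gene family of the mouse genome. They lie in clusters on most chromosomes and have an intronless coding exon, usually behind one or more 5' non-coding exons. Each olfactory sensory neuron expresses a single receptor gene from a single allele, and in these neurons the silent receptor genes lie in heterochromatin with H3K9me3. H3K9me1, H3K9me2 and H3K9me3 are the successive products of the H3K9 methyltransferases, and H3K9me3 is bound by HP1 proteins in constitutive heterochromatin.

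Promoter windows of 4 genes that stand for the 4 main states of marking are shown first, each from 250 bases before a start to 30 bases from it on. Sequences are from the GRCm38.p6 assembly (NCBI RefSeq), 5' to 3' on the gene's strand, in lower case. Capitals mark matches to CCCNNGGG, a core of Ebf factor sites, to TAATTA, a homeodomain core, and to TATAAA, the TATA box core. The first window is that of Olfr1358, the first gene of its cluster, at chr10:78517178-78517457 (plus strand), where the start base lay in regions of all 3 marks. The next is Olfr1431 at chr19:12209318-12209597 (plus strand), at the start that lay in H3K9me2 alone. Olfr1447 at chr19:12903714-12903993 (minus strand) had its 5' end in H3K9me3 alone. Olfr123 at chr17:37793279-37793558 (plus strand) had no mark and was the unmarked gene farthest from any region.
Olfr1358: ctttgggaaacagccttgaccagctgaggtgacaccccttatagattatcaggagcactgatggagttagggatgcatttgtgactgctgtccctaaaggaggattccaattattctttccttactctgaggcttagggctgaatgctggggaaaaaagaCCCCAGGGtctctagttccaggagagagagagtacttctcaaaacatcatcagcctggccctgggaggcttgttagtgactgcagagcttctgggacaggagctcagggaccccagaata
Olfr1431: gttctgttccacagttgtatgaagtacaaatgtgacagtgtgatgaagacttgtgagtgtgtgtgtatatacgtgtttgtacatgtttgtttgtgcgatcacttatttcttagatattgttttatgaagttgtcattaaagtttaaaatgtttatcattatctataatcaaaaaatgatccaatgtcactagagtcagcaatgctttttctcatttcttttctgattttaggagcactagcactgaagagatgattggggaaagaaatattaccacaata
Olfr1447: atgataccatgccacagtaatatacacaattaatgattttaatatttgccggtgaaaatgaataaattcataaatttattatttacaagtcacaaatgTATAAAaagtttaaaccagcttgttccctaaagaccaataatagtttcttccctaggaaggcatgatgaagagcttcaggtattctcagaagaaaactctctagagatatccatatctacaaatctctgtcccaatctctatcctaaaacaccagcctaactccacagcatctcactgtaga
Olfr123: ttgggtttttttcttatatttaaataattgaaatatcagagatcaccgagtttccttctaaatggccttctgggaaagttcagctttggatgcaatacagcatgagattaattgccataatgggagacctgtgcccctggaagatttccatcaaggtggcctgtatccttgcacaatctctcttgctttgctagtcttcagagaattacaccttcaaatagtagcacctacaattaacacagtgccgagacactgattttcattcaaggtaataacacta
The window of Olfr1358 had a GC content of 50% and no CG, with 1 CCCNNGGG. The other windows were poorer in GC, with 32.1% in Olfr1431, 33.6% in Olfr1447 and 38.9% in Olfr123, and held 2, 1 and 2 CG dinucleotides. Olfr1447 held 1 TATAAA, while Olfr1431 and Olfr123 held none of the 3 longer motifs in this window.

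Each mark had 1 list of regions for its 2 replicates, which gave positions and no score. The H3K9me1, H3K9me2 and H3K9me3 lists held 42704, 29119 and 27108 regions, of which 11891, 10539 and 9088 lay on chromosomes 10, 17 and 19. There was no value per replicate, so no SD could be given and no difference was tested against replicate spread. The study's methods state a sequencing depth for the samples, but the lists give no reads per region, so the depth behind a single region is unknown. Coverage differed widely between chromosomes: regions of any mark covered 81.0% of chromosome 10, 44.6% of chromosome 17 and 54.9% of chromosome 19, against 0.352% of the X chromosome and 0.594% of chromosome 16. Counts of Olfr genes are therefore set beside those of all genes on the same chromosome, and whether the difference between chromosomes comes from the cells or from the sequencing and calling was not tested. Intervals are 95% Wilson intervals over genes and cover counting error only, since neighbouring genes share regions and are not independent.

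A start site was called met when a region lay within 1 kb either side of any annotated start of the gene. H3K9me1 met 102 of the 232 genes (44.0%, interval 37.7 to 50.4), H3K9me2 met 120 (51.7%, 45.3 to 58.1) and H3K9me3 met 122 (52.6%, 46.2 to 58.9). Any mark met 148 genes (63.8%). Of all 6356 genes on the 3 chromosomes, 57.9%, 39.1%, 37.4% and 72.2% were met by H3K9me1, H3K9me2, H3K9me3 and any mark. The Olfr genes thus had less H3K9me1 and more H3K9me2 and H3K9me3 than all genes of the 3 chromosomes in these pooled counts. In the whole genome the shares were 21.4%, 11.5%, 12% and 28.8%. Without chromosome 10 the counts were 25, 43, 44 and 70 of 154 genes. For all genes the shares were 43.5%, 18.5%, 19.3% and 57.5% on chromosome 17 and 50%, 25.7%, 22.4% and 67.6% on chromosome 19.

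Over all starts of a gene, 90 Olfr genes (38.8%) met all 3 marks and 84 (36.2%) met none, against 23.6% and 27.8% of all genes of the 3 chromosomes. At 83 of the 90 genes the 3 marks lay in the window of the same start, and at 7 they met different starts. Between these states, 22 genes (9.48%) had H3K9me3 alone, 16 (6.90%) had H3K9me2 alone and 4 (1.72%) had H3K9me1 alone, where the shares of all genes were 5.73%, 2.19% and 25.7%. H3K9me2 with H3K9me3 was found at 8 genes, H3K9me1 with H3K9me2 at 6 and H3K9me1 with H3K9me3 at 2. The genes with all 3 marks were split unevenly, with 77 on chromosome 10, 3 on chromosome 17 and 10 on chromosome 19.

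On chromosome 10 nearly every Olfr gene carried every mark. H3K9me1 and H3K9me2 each met 77 of 78 genes (98.7%, interval 93.1 to 99.8) and H3K9me3 met all 78 (100%, 95.3 to 100). Of all 2630 genes of that chromosome, 74.8% were met by H3K9me1, 64.5% by H3K9me2, 61.4% by H3K9me3 and 87.8% by any mark, and 47.0% carried all 3. The 1 exception was Olfr1556-ps1, a pseudogene of 466 bp that lies by itself at 106502737 to 106503202 inside the span of Ppfia2, a liprin scaffold gene. It was wholly inside an H3K9me3 region of 3.75 kb, with no H3K9me1 or H3K9me2 in its start window or body.

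On chromosome 17 the share of marked Olfr starts was below that of all genes for H3K9me1 and for any mark. H3K9me1 met 10 of 63 genes (15.9%, interval 8.86 to 26.8), against 43.5% of all 2331 genes there. H3K9me2 met 14 (22.2%, 13.7 to 33.9) against 18.5%, and H3K9me3 met 13 (20.6%, 12.5 to 32.2) against 19.3%, and both background shares lay inside these intervals. Any mark met 26 genes (41.3%, 29.96 to 53.6) against 57.5%.

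Chromosome 19 showed the same low share of H3K9me1. This mark met 15 of 91 genes (16.5%, interval 10.3 to 25.4) against 50% of all 1395 genes. H3K9me2 met 29 (31.9%, 23.2 to 42.0) against 25.7%, which lay inside the interval, and H3K9me3 met 31 (34.1%, 25.2 to 44.3) against 22.4%, which lay below it. Any mark met 44 genes (48.4%, 38.4 to 58.5) against 67.6%.

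**Figure D1:**
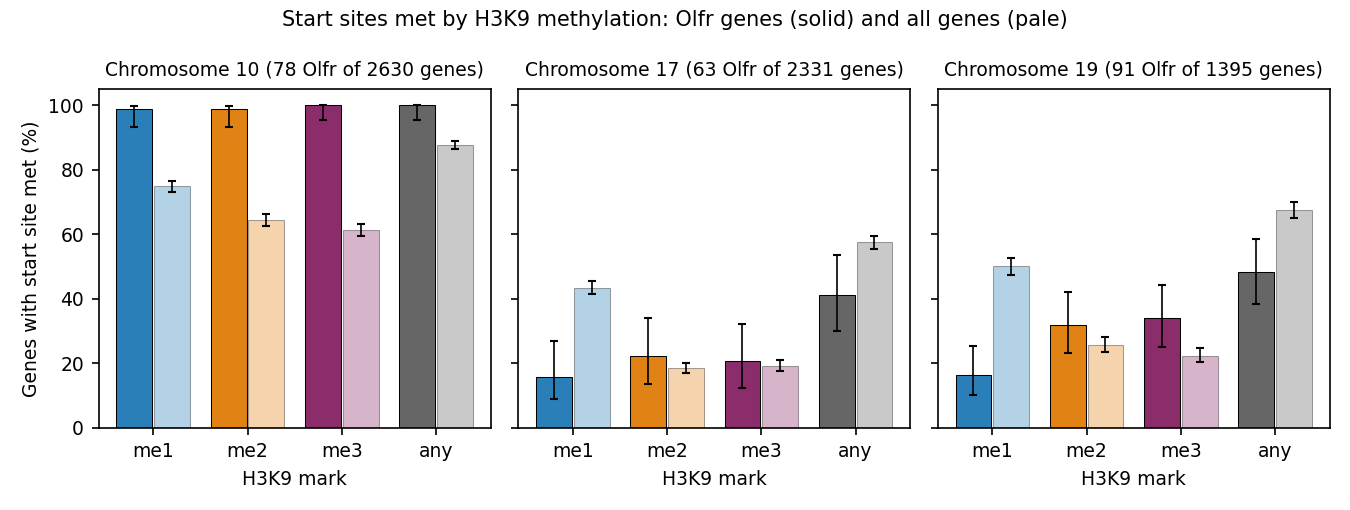
Share of genes (%) with a start site met, within 1 kb either side, by H3K9me1, H3K9me2, H3K9me3 or any mark on chromosomes 10, 17 and 19; solid bars are Olfr genes, pale bars all genes of the chromosome, and error bars are 95% Wilson intervals over genes. On chromosome 10 the Olfr bars stand at 98.7 to 100%, while on chromosomes 17 and 19 their H3K9me1 bars stand at 15.9% and 16.5%, under 43.5% and 50% of all genes.

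In counts pooled over the 3 chromosomes, gene bodies showed the same low share of H3K9me1 but a smaller excess of the other marks. Chromosome 10 went the other way, as 1 of 78 Olfr bodies and 520 of 2630 bodies of all genes had no H3K9me1. A body was met from 1 bp of overlap, so its length enters the count, and lengths were not matched. H3K9me1 met the body of 104 Olfr genes (44.8%, interval 38.6 to 51.3), H3K9me2 of 118 (50.9%, 44.5 to 57.2), H3K9me3 of 126 (54.3%, 47.9 to 60.6) and any mark of 149 (64.2%), where 66.4%, 47%, 45.1% and 79.8% of all genes on the 3 chromosomes were met. The background share of H3K9me2 lay inside the interval. On chromosome 19, H3K9me3 met 29 of 91 bodies (31.9%, 23.2 to 42.0) against 28.7% of all genes, also inside it. On chromosome 10 the median body was covered over 100% of its length by each mark, and 52, 64 and 71 of 78 bodies were wholly inside H3K9me1, H3K9me2 and H3K9me3. The median over all genes of chromosome 10 was 89.5%, 74.7% and 67.3%. On chromosome 17 only 0, 2 and 3 of 63 bodies, and on chromosome 19 only 1, 9 and 8 of 91, were wholly covered, where 342, 215 and 255 of 2331 and 214, 128 and 120 of 1395 bodies of all genes were. The median Olfr body on both chromosomes was at 0% for each mark. For all genes the median was likewise 0% for H3K9me2 and H3K9me3, but 11.5% and 32.5% for H3K9me1 on chromosomes 17 and 19. No region was met by 33 of 63 and 50 of 91 Olfr bodies, and by 748 of 2331 and 321 of 1395 bodies of all genes.

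**Figure D2:**
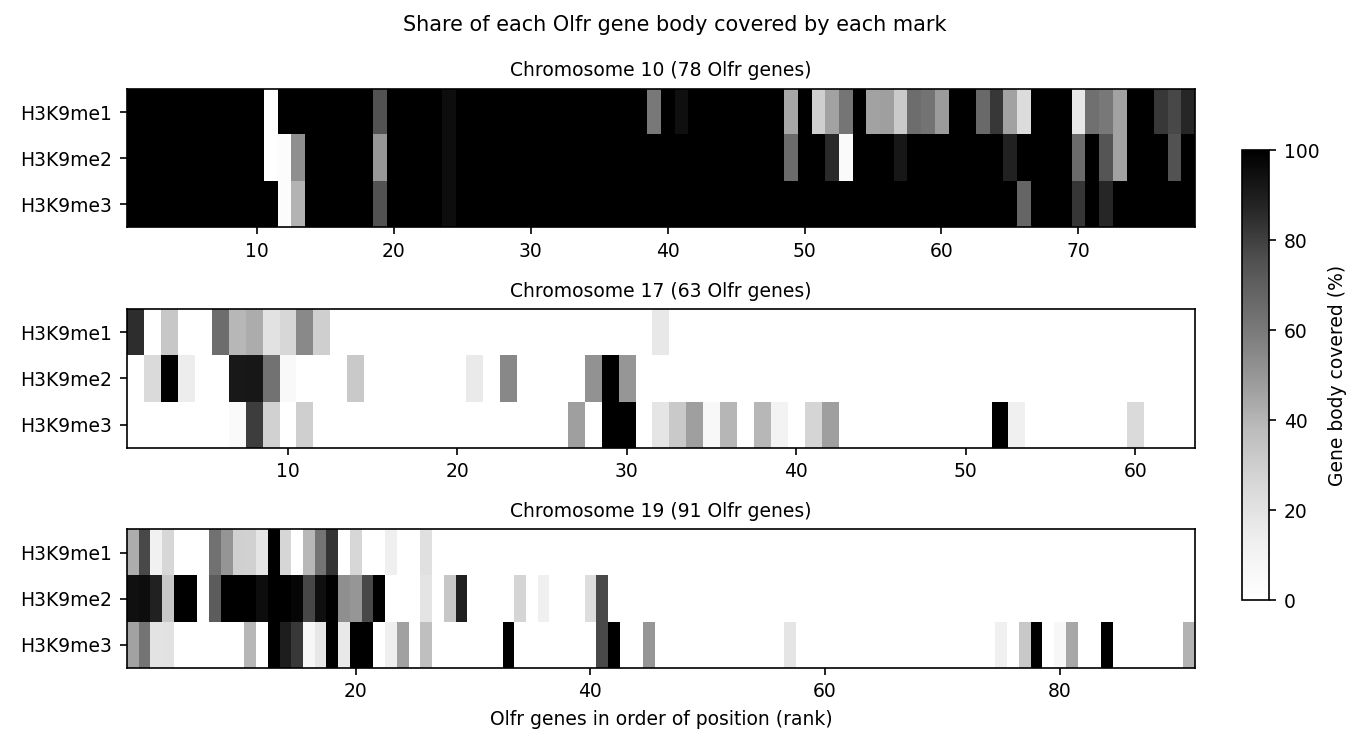
Share of each Olfr gene body covered by each mark (grey scale, % of the body), with genes in order of position along chromosomes 10, 17 and 19 on the x axis (rank) and the marks on the y axis. Chromosome 10 is dark at most genes for H3K9me2 and H3K9me3, and on chromosomes 17 and 19 the covered bodies of H3K9me1 and H3K9me2 lie mostly among the genes of lower rank.

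The genes were grouped into clusters by gaps of at most 500 kb. This gave 4 clusters of at least 5 genes, a group of 4 genes on chromosome 17 (Olfr55 to Olfr63) and 2 genes that stand alone. Coverage of each cluster was compared with 250 kb on either side.

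The longer cluster of chromosome 10, Olfr9 to Olfr827, held 67 genes in 1225 kb (128989431 to 130214403). It was covered over 94.0% by H3K9me2 and 97.1% by H3K9me3, against 59.0% and 58.8% of the chromosome. Coverage began near the edge of the cluster: the flank at lower coordinates was covered over 27.9% and 23.1%. The flank at higher coordinates was covered like the cluster, with 96.4% and 97.9%. H3K9me1 behaved otherwise, with 73.0% of the cluster and 79.3% and 86.5% of its flanks.

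Inside this cluster H3K9me1 thinned out in the far part and rose again toward the end, while H3K9me3 stayed dense. In tiles of 100 kb, H3K9me1 covered 83.1 to 98.5% of the first 500 kb. Between 700 and 1100 kb from the cluster start it covered 44.4 to 58.5%, where H3K9me3 covered 97 to 100%. From 1100 to 1200 kb H3K9me1 was back at 71.5%, and from there to the end at 1225 kb at 76.0%. Dense H3K9me3 did not by itself go with little H3K9me1, as the tile from 300 to 400 kb was covered over 98.5% by H3K9me1 and 100% by H3K9me3. The widest region at any Olfr start, an H3K9me3 region of 323 kb (129590251 to 129913500), met the starts of 21 genes, from Olfr796 to Olfr816. A second H3K9me3 region of 171 kb (129417001 to 129588000) met 10 more. The widest H3K9me1 region at an Olfr start, 110 kb (129003001 to 129113250), met 7 genes in the first part of the cluster. Olfr9, the first gene, was wholly covered by H3K9me1 but over only 2.62% of its body by H3K9me2 and H3K9me3, and Olfr827, the last, was covered over 86.8% by H3K9me1 and wholly by the other marks. H3K9me2 and H3K9me3 shared almost all of their length here, 99.4% of H3K9me2 and 96.2% of H3K9me3. Of the whole cluster H3K9me3 covered 97.1% and H3K9me2 94.0%, so a high shared length was fixed by coverage.

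The shorter cluster of chromosome 10, Olfr1358 to Olfr57, held 10 genes in 519 kb (78517428 to 79036274). H3K9me1, H3K9me2 and H3K9me3 covered 90.3%, 89.0% and 89.0% of it. All 10 genes carried all 3 marks, and Olfr1358 and Olfr57, at its ends, were wholly covered by each. Its flank at lower coordinates was covered over 90.4% by H3K9me1 but 47.5% by H3K9me2 and 47.8% by H3K9me3. Its other flank was covered over 74.2%, 78.1% and 83.2% by the 3 marks.

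Within the cluster of chromosome 17, Olfr90 to Olfr136 (37083871 to 38336643, 1253 kb, 58 genes), the marks were sparse and overlapped only in part. H3K9me1 covered 2.93% of it, H3K9me2 6.77% and H3K9me3 18.5%, against 26.5%, 16.9% and 22.4% of the chromosome. The flank at lower coordinates was covered over 38.5% by H3K9me1, 3.3% by H3K9me2 and 0% by H3K9me3, and the flank at higher coordinates over 0%, 0% and 10.8%. H3K9me2 and H3K9me3 overlapped over 38.9% of the H3K9me2 and 14.2% of the H3K9me3 length. Both shares were above the 18.5% and 6.77% of the cluster that H3K9me3 and H3K9me2 covered. Olfr90, at the first edge, was covered over 64.8% by H3K9me1 alone, and Olfr136, at the last, met no region.

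The marked genes of this cluster lay toward lower coordinates. When it was split at its midpoint, a division made after the values were seen, the part below it held 37 genes, of which 8, 12 and 12 were met by H3K9me1, H3K9me2 and H3K9me3 and 22 by any mark. The part above it held 21 genes, and only 1 was met, by H3K9me3. That gene was Olfr761, a receptor gene of 1029 bp wholly inside an H3K9me3 region of 9.75 kb. The 3 genes that met all marks were Olfr91, Olfr92 and Olfr93, of which Olfr93 met them at the same start and the other two at different starts. They lay between 37090618 and 37161494 and were covered over 91.7%, 92.2% and 62.9% by H3K9me2. Olfr92 was also covered over 80.8% by H3K9me3, whereas Olfr91 was covered by it over 3.63%. Olfr108 and the pseudogene Olfr759-ps1, both wholly inside H3K9me3, carried H3K9me2 as well without H3K9me1.

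An H3K9me1 gap of 3456 kb, from 37461001 to 40917000, began inside the cluster and took in 31 Olfr genes from Olfr110 to Olfr136. It was the second longest of 3162 gaps between H3K9me1 regions on the chromosome. H3K9me2 covered 0.694% of the same stretch and H3K9me3 12.5%. For H3K9me2, a gap of 2145 kb took in 11 Olfr genes from Olfr129 on. The gap held 27 other protein-coding genes in the case of H3K9me1 and 12 in that of H3K9me2, so it was not made up of Olfr genes alone.

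The cluster of chromosome 19, Olfr1417 to Olfr1505 (11826803 to 13921866, 2095 kb, 91 genes), was covered over 8.34% by H3K9me1, 19.2% by H3K9me2 and 21.3% by H3K9me3. The chromosome was covered over 31.0%, 22.3% and 23.3%. The flank at lower coordinates was covered over 37.5%, 42.9% and 28.8%, and that at higher coordinates over 0%, 0.9% and 29.5%. Of the 3 marks, H3K9me3 was thus the only one present at a like level on both sides.

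This cluster also changed from one end to the other. Split in the same way, the part below the midpoint held 30 genes, met in 15, 25 and 16 cases by H3K9me1, H3K9me2 and H3K9me3. The part above it held 61 genes, met in 0, 4 and 15 cases. Covered shares fell from 16.5% to 0.215% for H3K9me1 and from 33.2% to 5.17% for H3K9me2, while that of H3K9me3 went from 16.3% to 26.3%. H3K9me2 was densest between 200 and 500 kb from the cluster start, where tiles of 100 kb were covered over 63.8 to 69.8%. H3K9me3 was densest between 1200 and 1300 kb, with 47.3%. An H3K9me1 gap of 2680 kb, from 12940501 to 15620250, took in 56 Olfr genes from Olfr1450 to Olfr1505 and was the second longest of 2785 on the chromosome. H3K9me3 covered 26.7% of that gap and H3K9me2 5.37%, and it held only 1 other protein-coding gene. The parts also differed in strand and base composition: 10 of 30 and 40 of 61 genes were on the plus strand, the GC content was 40.6% and 37.8%, and soft-masked repeats took up 37.0% and 51.3%. The part of these in the marks was not tested.

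**Figure D3:**
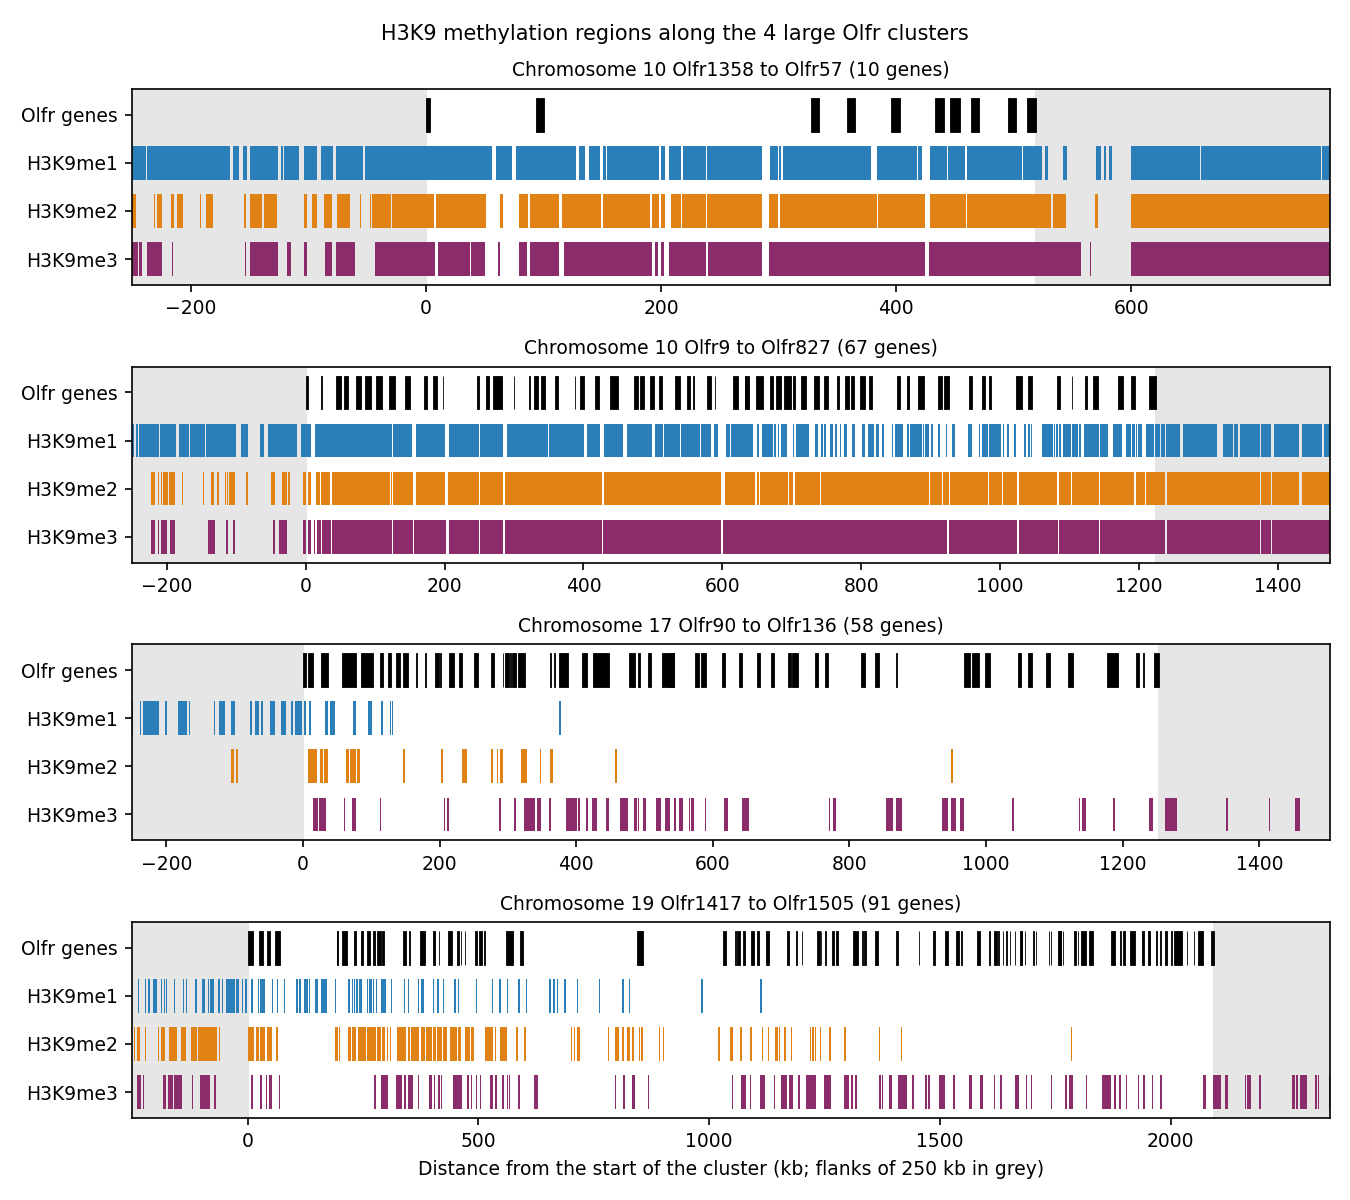
Regions of H3K9me1, H3K9me2 and H3K9me3 (coloured blocks) and Olfr gene bodies (black blocks) along the 4 large clusters, with distance from the cluster start in kb on the x axis and the 250 kb flanks in grey. Chromosome 10 is almost filled, and in the clusters of chromosomes 17 and 19 H3K9me1 ends well before the last genes, leaving 31 and 56 Olfr genes in a gap that reaches beyond the cluster.

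**Figure D4:**
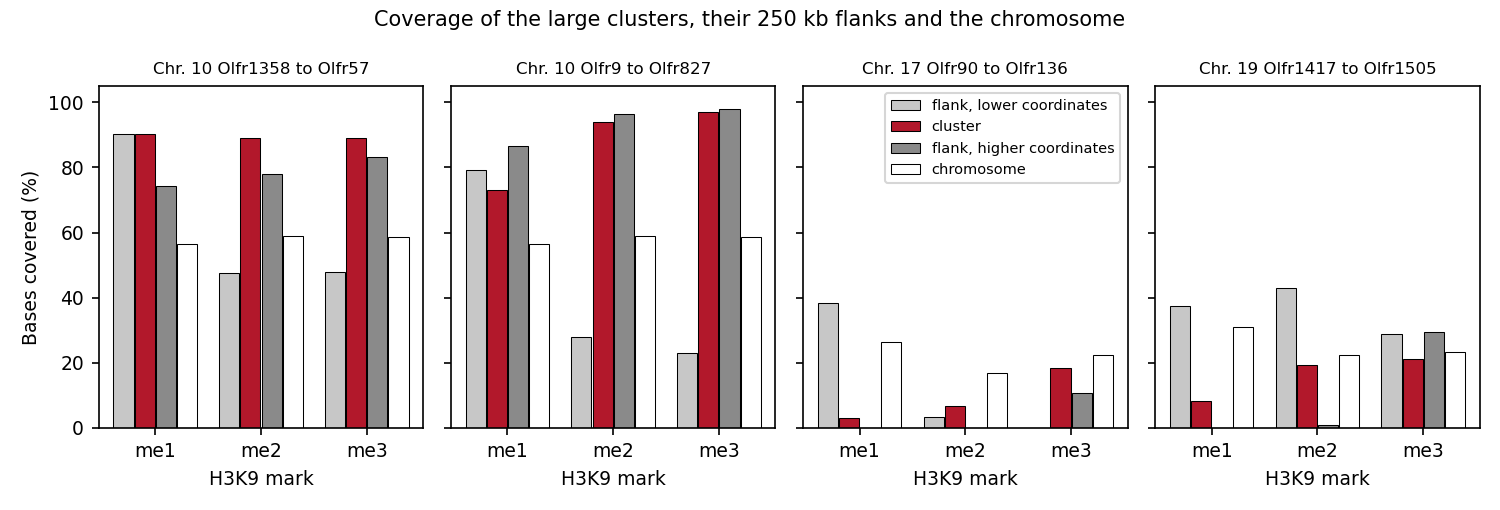
Share of bases covered (%) by each mark in the 4 large clusters, in the 250 kb flank on each side and on the whole chromosome. H3K9me2 and H3K9me3 cover the Olfr9 to Olfr827 cluster over 94.0% and 97.1% but its flank at lower coordinates over 27.9% and 23.1%, and H3K9me1 covers the clusters of chromosomes 17 and 19 over 2.93% and 8.34%.

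With all clusters and lone genes pooled, H3K9me1 covered 30.4% of 5200 kb against 36.3% of the flanks, H3K9me2 40.8% against 32.6% and H3K9me3 45.0% against 38.2%. Any mark covered 53.9% of the clusters and 59.2% of the flanks. Every cluster or lone gene adds flanks of the same length, whatever its own, so clusters and flanks are weighted differently in these shares. Against their own flanks, any mark differed by 7.21 and 9.17 points in the clusters of chromosome 10. The differences were -4.67 and -1.04 points in those of chromosome 17 and -13.99 in that of chromosome 19. The lone genes were above their flanks by 33.5 and 26.7 points. Without chromosome 10 the differences between clusters and flanks for H3K9me2 and H3K9me3 were -3.11 and -0.75 percentage points. The 2 large clusters left in this value went opposite ways: the cluster of chromosome 17 was above its flanks by 5.12 and 13.1 points, and that of chromosome 19 differed from its flanks by -2.71 and -7.87 points.

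Single genes illustrate how the marks sat on the sparse clusters. Olfr1431, the receptor gene whose promoter is shown above, spans 12200634 to 12212191 on the plus strand of chromosome 19 and has 3 annotated starts. Its first start, at 12200634, was 1117 bp from the nearest H3K9me2 region and 2617 and 2634 bp from H3K9me1 and H3K9me3, so that no mark lay in the window. The second start, 171 bp further on, was 946 bp from H3K9me2 and was counted as met. Only the third, at 12209568, lay inside the H3K9me2 region, which measured 9 kb. H3K9me2 covered 77.9% of the gene body, H3K9me1 38.9% and H3K9me3 6.49%. The call of Olfr1431 as an H3K9me2 gene therefore depends on its inner starts.

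The other named genes of chromosome 19 ranged from whole coverage to a single bin. Olfr1427 and Olfr1555-ps1 were wholly inside H3K9me2 regions of 18.8 and 19.5 kb and were covered by H3K9me3 over 39.1% and 89.9%. Olfr1447, wholly inside an H3K9me3 region of 11.3 kb, carried no other mark. Olfr1417, at the first edge of the cluster, was covered over 42.3%, 94.4% and 46.1% by H3K9me1, H3K9me2 and H3K9me3, and Olfr1505, at the last edge, over 40.4% by H3K9me3 alone. Olfr1437 had H3K9me1 and H3K9me3 in regions of 0.75 kb each, the width of a single bin of the grid on which all regions lay.

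Genes with no mark in a start window lay at various distances from the nearest region. On chromosome 17, the 5' end of Olfr55 was 1804 bp and that of Olfr123 was 56.5 kb from a region of any mark. The region near Olfr55, of H3K9me2, lay inside its gene body. On chromosome 19 the range was from 1183 bp for Olfr1441 to 20.8 kb for the pseudogene Olfr1503-ps1. The median distance from a 5' end to the nearest H3K9me1 region was 99.2 kb on chromosome 17 and 218 kb on chromosome 19, against 7.74 kb and 3.78 kb for H3K9me3.

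Around 5' ends the pooled Olfr genes showed no fall of H3K9me1, unlike other genes. H3K9me1 covered the 5' end of 31.5% of the 232 Olfr genes, and a median of 28.9% at 25 to 50 kb. For the other protein-coding genes of the 3 chromosomes the values were 24.3% at the 5' end and 57.3% at 25 to 50 kb. By chromosome, H3K9me1 stood at 80.8% of the Olfr 5' ends and 74.4% at 25 to 50 kb on chromosome 10. On chromosome 17 the values were 9.52% and 4.76%. On chromosome 19 H3K9me1 did fall, to 4.40% at the 5' end from 7.14%, and all genes there fell to 25.7% from 41.7%. H3K9me2 went from 40.7% of the Olfr genes at 25 to 50 kb to 40.1% at the 5' end, and H3K9me3 from 47.0% to 43.1%. In the other protein-coding genes H3K9me2 went from 29.3% to 16.3% and H3K9me3 from 27.2% to 16.3%. The chromosomes differed in this: H3K9me3 stood at 98.7% of the Olfr 5' ends and 96.2% at 25 to 50 kb on chromosome 10, at 12.7% and 17.5% on chromosome 17, and at 16.5% and 24.2% on chromosome 19. For all genes H3K9me3 stood at 29.1% and 33.3% over the 3 chromosomes, a fall about as large as that of the Olfr genes, and at 15.2% and 16.4% on chromosome 17 and 15.3% and 15.6% on chromosome 19, smaller falls than those of the Olfr genes there.

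**Figure D5:**
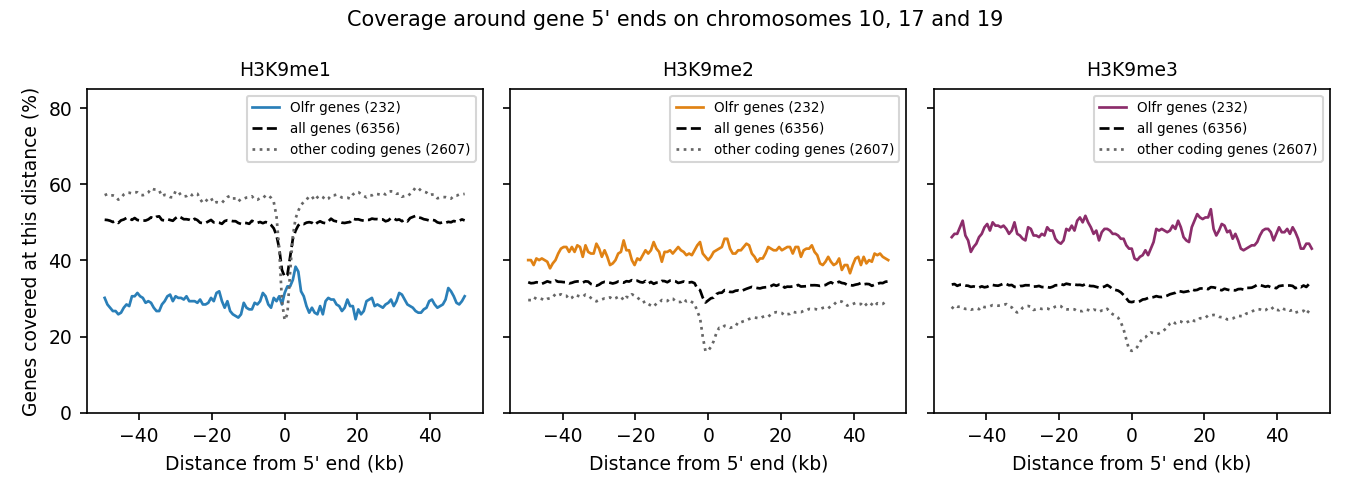
Share of genes covered (%) by each mark at each distance from the 5' end (kb, in steps of 750 bp, negative values upstream) for the 232 Olfr genes (coloured lines), all 6356 genes (dashed) and the other protein-coding genes (dotted) of chromosomes 10, 17 and 19. The dotted H3K9me1 line dips from 57.3% to 24.3% at the 5' end, where the Olfr line stands at 31.5%.

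The share met by any mark rose with the number of annotated starts, in counts pooled over chromosomes. More than 1 start was annotated for 63 of the 78 genes of chromosome 10, all of which were met. On chromosome 17 this held for 19 of 26 met and 28 of 37 unmarked genes, and on chromosome 19 for 33 of 44 and 25 of 47. The part of the number of windows and of the chromosome was not tested. Any mark met 33 of 64 Olfr genes with 1 start (51.6%), 63 of 94 with 2 starts (67.0%) and 52 of 74 with at least 3 (70.3%). The single marks were highest at 2 starts, with 26.6%, 55.3% and 44.6% for H3K9me1, 42.2%, 56.4% and 54.1% for H3K9me2 and 39.1%, 59.6% and 55.4% for H3K9me3 at 1, 2 and at least 3 starts. Counting the 5' end alone gave 83 genes for H3K9me1, 108 for H3K9me2, 109 for H3K9me3 and 130 for any mark. By this rule H3K9me1 went from 77 to 68 of 78 genes on chromosome 10. On chromosome 19 H3K9me3 went from 31 to 22 of 91. No share of all genes by the 5' end rule is set beside these counts. Whether the excess of H3K9me3 over all genes of chromosome 19 holds by this rule is therefore not shown. Of the protein-coding Olfr genes 126 of 189 (66.7%) and of the pseudogenes 22 of 43 (51.2%) were met by any mark, and the pseudogenes had a median length of 798 bp and a median of 1 start. Biotype was mixed with chromosome, as 70 of the 78 genes of chromosome 10, all met, were protein-coding. Protein-coding genes made up 21 of 26 met and 32 of 37 unmarked genes on chromosome 17. On chromosome 19 they made up 35 of 44 and 31 of 47. The part of each was not tested.

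Promoters of the Olfr genes, taken from 250 bases before to 50 after the 5' end, were poor in GC and CG. The median GC content was 37.0%, against 48.0% for all genes, and a CG was present in 60.3%, against 90.6%. TAATTA was found in 24.1% of the Olfr windows and in 7.56% of all windows, TATAAA, searched on both strands, in 31.9% and 17.1%, and CCCNNGGG in 11.2% and 10.5%. CG, TAATTA and CCCNNGGG are their own reverse complements, and TATAAA and TAATTA share letters where they overlap. Among Olfr genes with any mark the shares were 27.7%, 33.1% and 13.5%, and among those with none 17.9%, 29.8% and 7.14%. The marked set holds all genes of chromosome 10 and the unmarked set none, so mark and chromosome cannot be told apart in these shares.

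Genes other than Olfr inside the clusters were marked at a like rate. Any mark met 58 of 91 of them (63.7%, interval 53.5 to 72.9), with 33, 44 and 45 met by H3K9me1, H3K9me2 and H3K9me3. In the flanks, any mark met 91 of 133 genes (68.4%), with 78, 47 and 40 met by the single marks. On chromosome 17, H2-M2, a class Ib MHC gene, was covered wholly and had H3K9me3 at its start, whereas H2-M3, of the same class, and Ubd, a ubiquitin-like protein gene, met no region. On chromosome 19, Cntf, a neurotrophic cytokine gene, Zfp91 and Mpeg1, a perforin-like gene of macrophages, met no region either.

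Other chemosensory genes of chromosome 10 were covered as well. All 16 trace amine-associated receptor (Taar) genes, a second family of olfactory receptors, lay wholly inside regions of each of the 3 marks, where 992, 963 and 977 of all 2630 bodies of the chromosome lay wholly inside H3K9me1, H3K9me2 and H3K9me3. Of 13 genes of olfactory signal transduction, 4 had a mark at a start, near the 28.8% of all genes in the genome. The 4 lay on chromosomes 8, 9, 10 and 17, covered over 35.7 to 81.0% by any mark. Those without a mark lay on chromosomes 3, 6, 7, 12, 18 and X, covered over 0.352 to 2.77%. Gene group and chromosome thus cannot be told apart in this count. Ric8b, an exchange factor for the olfactory G protein, and Cngb1, a subunit of the olfactory cyclic nucleotide-gated channel, had all 3 marks, while Slc8a1, a sodium-calcium exchanger, had H3K9me3 and Pde4a, a cAMP phosphodiesterase, had H3K9me1. The receptor transport genes Rtp1, Rtp2 and Reep1 had none, and lay on chromosomes 16 and 6, covered over 0.594% and 0.799% by any mark. Of 17 regulators of receptor choice and of neuronal identity, 4 had H3K9me1 at a start, near the 21.4% of all genes, and none had H3K9me2 or H3K9me3. They were Ldb1, a cofactor of Lhx2, the methyltransferase genes Ehmt1 and Ehmt2, and Nfix.

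Olfr genes of other chromosomes ranged from all marked to none. On chromosome 11, H3K9me1, H3K9me2 and H3K9me3 met 47, 64 and 32 of 104 genes and any mark met 81 (77.9%), against 32.0%, 8.40%, 7.51% and 39.6% of all genes there. On chromosome 9 the 3 marks met 0, 2 and 6 and any mark 8 of 173 (4.62%), against 50.8% of all genes for any mark. Any mark met 5 of 5 Olfr genes on chromosome 8 and 10 of 10 on chromosome 15, where it met 74.1% and 82.7% of all genes. Over the 18 other main chromosomes together, any mark met 149 of 1175 Olfr genes. The share of all genes in the whole genome was 28.8%. That share takes in chromosomes 10, 17 and 19, where it was 72.2%, and is thus above that of the 18 chromosomes alone. The 293 Olfr genes of chromosome 7 held 1 marked gene and the 45 of chromosome 16 held 0, in chromosomes covered over 2.24% and 0.594% by any mark. Of all genes there, any mark met 3.54% and 0.871% at a start.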

How the data were processed

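H3K9me1, H3K9me2, H3K9me3 and input were profiled by ChIP-seq in WT MEFs, 2 replicates each. The authors used bwa (0.7.1 per the processing notes in the labels) for alignment to the GRCm38 assembly (mm10) and called enriched regions with histoneHMM, a hidden Markov model that classes bins as enriched or not. The deposited lists give region starts and ends in bp, on a grid of 750 bp, with no score. How replicates, input and a threshold entered the calls is not given in the sources used here. No list of the input was used here. Coordinates were taken as 1-based with inclusive ends. A region's edges are thus set by whole bins.

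The lists were intersected with GENCODE M21 genes, at least 1 bp of overlap counting as met. Clusters joined Olfr genes at most 500 kb apart, and covered shares leave out N bases. Promoter windows were read from the GRCm38.p6 genome. No test was made, since the lists hold no value per replicate. Intervals are Wilson intervals at the 95% level. The overlap code was tested on simulated lists with 0 mismatches in 2000 recounts. The members and gene lists were chosen with earlier results of these data known. Named genes were Olfr1431, the first and last gene of each cluster of at least 5, the gene with the most covered body for each combination of marks and chromosome, every gene of a combination with at most 3 genes, and the unmarked genes nearest to and farthest from a region. Genes that are no Olfr genes inside the clusters were named after their values were seen. Alternatives varied the window, region width, joining, gap and flanks. Scripts ran in Python 3.11.15 with Matplotlib 3.10.9, SciPy 1.17.1 and NumPy 2.4.6.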

Additional observations from a re-analysis of the deposited data

How the results depend on the processing

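The counts of start sites met stayed within 1.5 times the reported ones in 39 of 44 alternatives and those of bodies in 23 of 32. Keeping regions of at least 5 kb left 66 starts and 64 bodies met by H3K9me1. Requiring the whole body left 53, 75, 82 and 94 bodies for H3K9me1, H3K9me2, H3K9me3 and any mark. Leaving out chromosome 10, chosen after seeing the data, gave 25, 43, 44 and 70 starts and 27, 41, 48 and 71 bodies of 154 genes.

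Covered shares of clusters minus flanks (percentage points, main values -5.86, 8.15, 6.85 and -5.27 for H3K9me1, H3K9me2, H3K9me3 and any mark) kept their sign in all alternatives but that without chromosome 10, with -15.4, -3.11, -0.75 and -10.7. A gap of 200 kb gave -9.95, 3.23 and 4.40 for the 3 marks. Flanks of 100 kb gave -1.63 for H3K9me1 and 3.96 for H3K9me3, flanks of 500 kb gave 5.28 for H3K9me2, and flanks of 1 Mb gave -9.61 for H3K9me1 and 12.3 for H3K9me3. Clusters of at least 5 genes gave -19.9 for H3K9me1, 4.12 for H3K9me2 and -8.96 for any mark. Regions of at least 5 kb gave 11.8 for H3K9me2, and joined regions gave -8.96 for any mark. The cause was not tested.

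No paired analysis was possible because each mark has a single list for its replicates, and these could not be left out for the same reason. Without reads or scores per region, how far an unmarked gene was from being called is unknown.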
